A study of Mus musculus with 18 samples.

Results

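The metabotropic glutamate receptors described here were Grm2, Grm3, Grm4, Grm5, Grm7 and Grm8, chosen by name as 6 of the 55421 genes in the count table. All 6 passed the filter on low counts, which kept 20914 genes for testing. RNA was sequenced from the striatum of 18 mice of 12 to 14 months, with 1 library per mouse. The groups were 5 WT, 5 zQ175, 3 CK2a'(+/-) and 5 zQ175:CK2a'(+/-) mice, listed on the C57BL/6 background. The zQ175 line is a knock-in model of Huntington's disease that carries an expanded CAG repeat in full-length huntingtin, and CK2a'(+/-) mice keep 1 allele of Csnk2a2, the gene of the catalytic alpha prime subunit of protein kinase CK2. The zQ175:CK2a'(+/-) mice carry both changes. The study describes zQ175 as heterozygous. It states that the CK2a'(+/-) line, obtained on a mixed background that includes 129/SvEv, was bred for many generations with WT and zQ175 mice, and gives C57BL/6J as the background of all mice used. The mice were anesthetized with Avertin and perfused before the whole striatum was dissected, so fewer cells of a type and less RNA per cell cannot be told apart in any value below.

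Metabotropic glutamate receptors are G protein-coupled receptors that tune transmission at glutamatergic synapses instead of opening an ion channel. Group I receptors, here Grm5, act through Gq and phospholipase C and sit mostly on the postsynaptic side. Group II (Grm2 and Grm3) and group III (Grm4, Grm7, Grm8 and Grm6) act through Gi/o proteins, lower cAMP and mostly restrain release from nerve terminals. In the striatum, Grm5 is abundant in projection neurons, whereas Grm2 protein lies largely on terminals of cortical and thalamic neurons whose cell bodies, and most of whose RNA, are outside the striatum.

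The upstream sequences of the group II pair are shown because these closely related receptors differed widely in the levels described below, where Grm2 was the lowest of the 6. Each run gives the 250 bases before the RefSeq transcription start (GRCm38.p6), 5′ to 3′ on the gene's strand, with matches to the GC box GGGCGG in capitals. The Grm2 window is chr9:106656110-106656359 and the Grm3 window is chr5:9725353-9725602, both on the minus strand.
Grm2: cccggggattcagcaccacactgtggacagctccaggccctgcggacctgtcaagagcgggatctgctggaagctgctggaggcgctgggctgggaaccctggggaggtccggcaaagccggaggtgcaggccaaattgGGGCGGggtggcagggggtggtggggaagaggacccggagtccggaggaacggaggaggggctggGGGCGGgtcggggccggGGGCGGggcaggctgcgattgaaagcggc
Grm3: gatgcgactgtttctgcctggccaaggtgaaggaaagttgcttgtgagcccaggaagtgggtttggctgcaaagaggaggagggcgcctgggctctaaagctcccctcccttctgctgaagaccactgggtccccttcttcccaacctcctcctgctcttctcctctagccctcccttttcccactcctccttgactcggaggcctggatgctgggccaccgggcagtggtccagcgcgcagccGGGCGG
The Grm2 window held 3 GC boxes and 71.2% G or C, and the Grm3 window held 1 GC box and 62.4% G or C. Over all 32851 mouse windows of that length the median was 52.4% G or C, and 32.7% had at least 1 GC box on either strand. Neither the cAMP response element TGACGTCA, present in 1.55% of all windows, nor the NR4A element AAAGGTCA, present in 1.34%, was found in the Grm2 or Grm3 window on either strand. The promoter table held windows for 4 of the 6 receptor genes, without Grm4 and Grm5. The RNA data do not measure the use of these sequences.

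Total counts per mouse lay between 13612381 and 22702547. The targeted gene, Csnk2a2, was at 14.7 to 19.9 CPM (counts relative to the library's total after edgeR's TMM scaling) in the 8 mice with 1 allele and at 29.4 to 37.5 CPM in the 10 mice with both, without overlap. Xist, which marks female mice, exceeded 900 CPM in 4 of 5 WT, 2 of 5 zQ175, 1 of 3 CK2a'(+/-) and 4 of 5 zQ175:CK2a'(+/-) mice, so the groups differed in their share of females. Each library expressed all 12 markers of striatal projection neurons. A pair of zQ175 libraries stood apart in markers of other brain regions. Replicate 1 had the highest level among the 18 libraries of all 7 thalamic neuron markers (summed 1661 CPM, against 250.2 to 624 CPM in WT mice) and the lowest level of all 12 projection neuron markers (summed 1826 CPM, against 3228 to 7484 CPM in WT mice). Replicate 5 had the highest level of 7 of 10 cortical excitatory neuron markers (summed 499.9 CPM, against 191.6 to 265 CPM in WT mice) and of 5 of 6 hippocampal markers (summed 833 CPM, against 477 to 652 CPM in WT mice), with the lowest thalamic sum (219.6 CPM). Over the marker lists, edgeR called 3 of 12 projection neuron (Adora2a, Penk and Ppp1r1b), 4 of 6 oligodendrocyte (Cnp, Mbp and Mobp among them) and 1 of 6 microglia markers (C1qa) lower in zQ175 than in WT mice, 1 of 9 tested cortical (Tbr1) and 1 of 5 tested hippocampal markers (C1ql2) higher, and none of the interneuron, thalamic, choroid plexus, astrocyte, oligodendrocyte precursor and endothelial markers. At least 1 library was at 0 for the cortical markers Neurod6 and Emx1, the hippocampal marker Lct and the choroid plexus markers Folr1, Kcne2 and Otx2. In a fit without zQ175 replicates 1 and 5, a setting chosen after their values were seen, none of the markers named here as called passed between zQ175 and WT mice, with an edgeR FDR of 0.245 (Adora2a, Mbp and Tbr1) to 0.468 (C1ql2). That fit called 0 of all genes, and the log2 fold changes of these markers kept their direction, at 1.28 for Tbr1, -1.02 for Adora2a, -0.79 for Penk, -0.65 for Ppp1r1b, -0.45 for Mbp and -0.46 for Mobp, -0.34 for Cnp, -0.48 for C1qa and 1.2 for C1ql2 (2.97 with all libraries), each with an unadjusted p under 0.05. Choroid plexus markers reached summed levels of 2078 and 1727 CPM in WT replicates 1 and 3, 979 CPM in CK2a'(+/-) replicate 1 and 3094 CPM in zQ175:CK2a'(+/-) replicate 2. They were at 12.4 to 22.6 CPM in the other 14 mice, the 5 zQ175 mice among them, and their part in the results was not tested.

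To ask which receptors dominate striatal RNA, levels were divided by the length of each gene's exons. In WT mice the level per kilobase of exon was highest for Grm5, at 34.4 ± 8.79 CPM per kilobase (SD, n = 5), and Grm3, at 33.4 ± 8.28. The order of this pair was not stable, since Grm5 was above Grm3 in 12 of 18 mice and in 3 of 5 WT mice. Grm7 followed at 16.2 ± 3.51 CPM per kilobase and Grm4 at 9.55 ± 1.57. Grm8 lay at 1.57 ± 0.136 CPM per kilobase and Grm2 was lowest at 0.277 ± 0.0852. Grm3 was above Grm7, Grm7 above Grm4 and Grm4 above Grm8 in all 18 mice. Grm8 was above Grm2 in 16 of 18 mice, and the exceptions were zQ175 replicates 1 and 5. Grm5 and Grm3 together thus gave most of the receptor RNA per length of the 6 genes, with mean shares in WT mice of 35.9% and 34.9%, against 0.294% for Grm2. The order was the same when counts per length were scaled to a common sum over all genes, as in TPM.

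**Figure D1:**
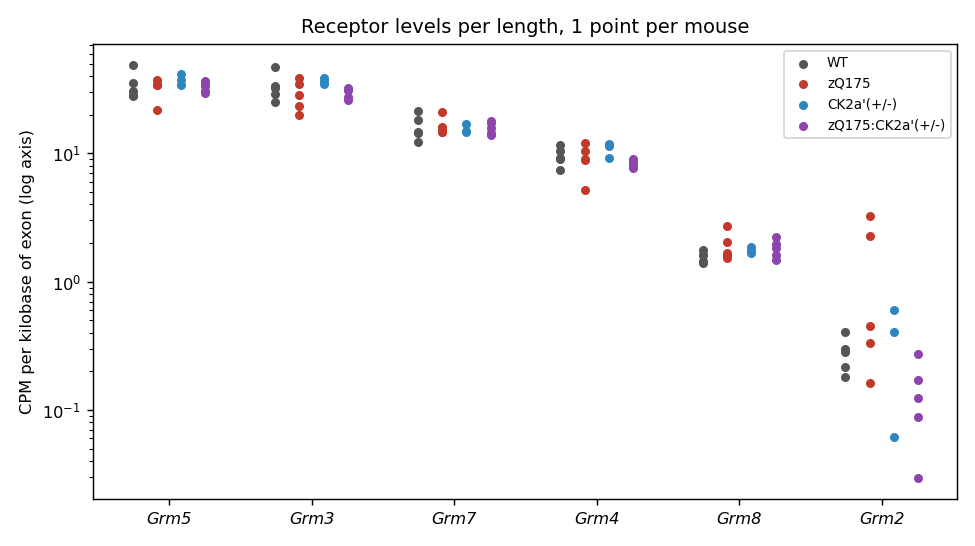
Level of each receptor in CPM per kilobase of exon (log axis), with 1 point per mouse and colours for the 4 genotypes. Grm5 and Grm3 overlap at the top, Grm8 and Grm2 lie far below, and the pair of high Grm2 points above 1 CPM per kilobase are zQ175 mice.

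Genotypes were then compared with edgeR's quasi-likelihood test, and a gene passed at an FDR (Benjamini-Hochberg adjusted p over all tested genes) under 0.1. None of the 6 receptors passed in any comparison. By this test 1.1% of all genes passed between zQ175 and WT mice, 0.593% between zQ175:CK2a'(+/-) and CK2a'(+/-) mice, 0.0143% between zQ175:CK2a'(+/-) and WT mice, 0.0143% between zQ175 and zQ175:CK2a'(+/-) mice, 0.0143% between CK2a'(+/-) and WT mice, and 0.00478% for the interaction of the zQ175 and CK2a'(+/-) genotypes. At an unadjusted p under 0.05, Grm2 passed in 3 of these comparisons (zQ175 against WT, zQ175 against zQ175:CK2a'(+/-), and the interaction) and Grm4 in 1 (zQ175:CK2a'(+/-) against CK2a'(+/-)). The shares of all genes under 0.05 in these comparisons were 13.9%, 6.27%, 5.39% and 9.19%, and they were 9.13% between zQ175:CK2a'(+/-) and WT mice and 4.48% between CK2a'(+/-) and WT mice, where no receptor passed. DESeq2 called 1 receptor, Grm2, between zQ175 and WT mice and between zQ175 and zQ175:CK2a'(+/-) mice, where it called 5.26% and 0.145% of the genes with an adjusted p, and no receptor in the other comparisons, where it called 0.725% (zQ175:CK2a'(+/-) against WT), 0.0293% (CK2a'(+/-) against WT), 1.47% (zQ175:CK2a'(+/-) against CK2a'(+/-)) and 0.103% (interaction). The comparisons share WT, zQ175, CK2a'(+/-) or zQ175:CK2a'(+/-) mice with each other and are not independent.

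**Figure D2:**
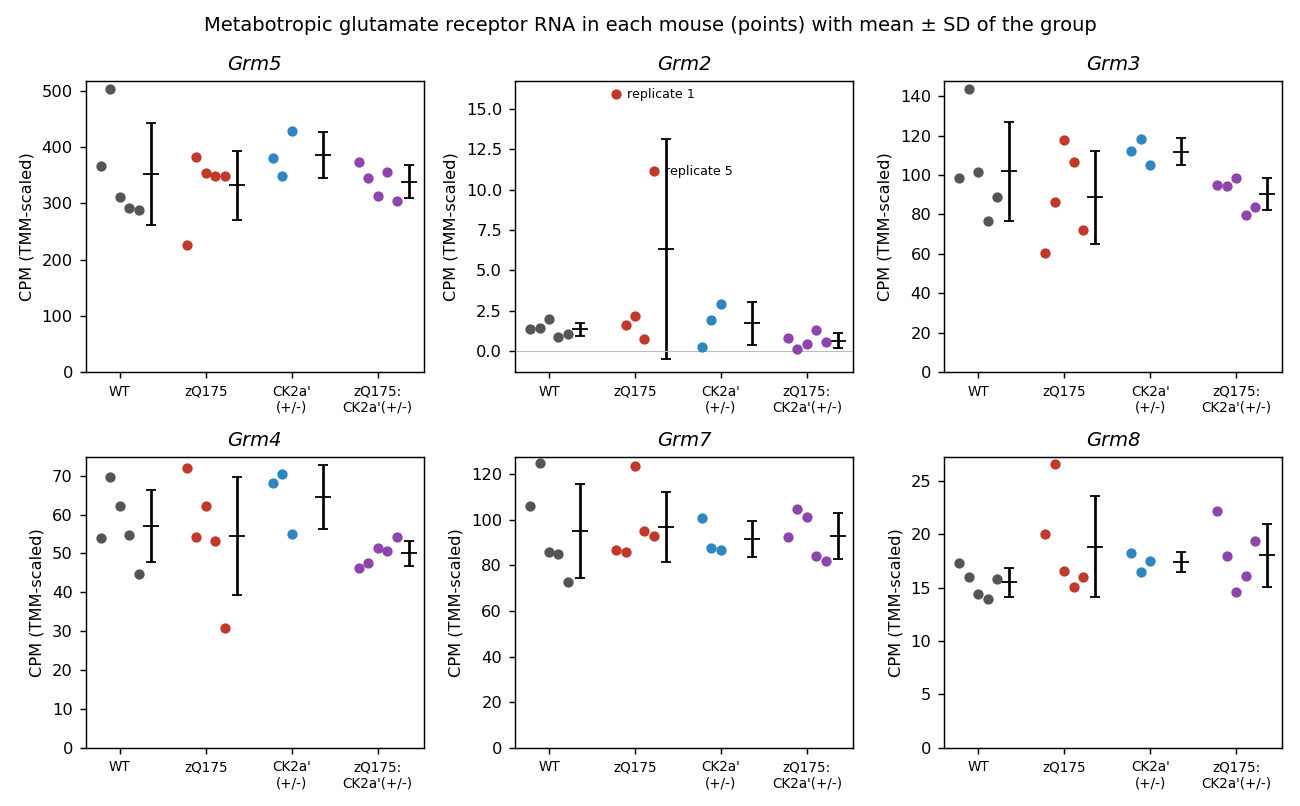
TMM-scaled CPM of each receptor in every mouse, with replicates from left to right within a group and the mean ± SD beside them. Grm2 exceeds 10 CPM in zQ175 replicates 1 and 5 and stays under 3 CPM in the other 16 mice, while the groups of the other receptors mostly overlap.

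Grm5 (ENSMUSG00000049583, GRCm38 chromosome 7, 87584168 to 88134907, plus strand) is the main group I receptor of projection neurons, where it couples to Gq and to Homer and Shank scaffolds. Its level was 366, 504, 312, 293 and 288 CPM in WT mice. In zQ175 mice it was 225, 383, 355, 349 and 349 CPM. The CK2a'(+/-) mice had 381, 349 and 429 CPM. The zQ175:CK2a'(+/-) mice had 373, 345, 313, 357 and 304 CPM. All groups overlapped, and zQ175 replicate 1, the library with the lowest projection neuron markers, had the lowest Grm5 level of the 18 mice. The part of those markers in the Grm5 value was not tested. Grm5 differed by -0.09 on the log2 scale between zQ175 and WT mice (95% interval -0.38 to 0.21, edgeR FDR = 0.84) and by -0.03 between zQ175 and zQ175:CK2a'(+/-) mice (-0.32 to 0.27, edgeR FDR = 0.988). Without zQ175 replicates 1 and 5 these values became 0.04 and 0.10.

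Grm2 (ENSMUSG00000023192, GRCm38 chromosome 9, 106643095 to 106656082, minus strand) is the group II autoreceptor of many glutamatergic projection neurons, and its upstream sequence is the GC-rich run shown above. Its level was 1.40, 1.45, 1.97, 0.888 and 1.07 CPM in WT mice, from 20 to 29 counts each. In zQ175 mice it was 15.9, 1.62, 2.21, 0.791 and 11.1 CPM, from 12 to 339 counts. The CK2a'(+/-) mice had 0.303, 1.97 and 2.94 CPM, and the zQ175:CK2a'(+/-) mice had 0.844, 0.144, 0.429, 1.33 and 0.601 CPM, from 2 to 25 counts. The higher zQ175 mean came from replicates 1 and 5, and the other 3 zQ175 mice lay at 0.791 to 2.21 CPM, next to the WT range of 0.888 to 1.97 CPM. Grm2 shares 918 exon bases with Gm28111 on the opposite strand, which had 0 counts in every library.

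Between zQ175 and WT mice the fitted log2 fold change of Grm2 was 2.24 (SE 0.666, 4.73-fold, 95% interval 1.81 to 12.3-fold, edgeR FDR = 0.133). Between zQ175 and zQ175:CK2a'(+/-) mice it was 3.21 (SE 0.713, 9.23-fold, 95% interval 3.31 to 25.8-fold, edgeR FDR = 0.328), which ranked 11 by p among all genes tested. DESeq2 gave 2.23 (FDR = 0.0777) and 3.24 (FDR = 0.0387) for the same comparisons. Between zQ175:CK2a'(+/-) and WT mice the log2 fold change was -0.97 (95% interval -2.46 to 0.53, edgeR FDR = 0.745), with 4 of 5 zQ175:CK2a'(+/-) mice below all WT mice. It was 0.35 between CK2a'(+/-) and WT mice (-1.25 to 1.95, edgeR FDR = 0.999) and -1.32 between zQ175:CK2a'(+/-) and CK2a'(+/-) mice (-2.97 to 0.34, edgeR FDR = 0.677), where it became -0.74 without CK2a'(+/-) replicate 3 and -1.82 without CK2a'(+/-) replicate 1. The interaction was -3.56 (SE 1.03, edgeR FDR = 0.811), and -1.52 (SE 0.84, edgeR FDR = 0.975) without zQ175 replicates 1 and 5, where its unadjusted p was no longer under 0.05.

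**Figure D3:**
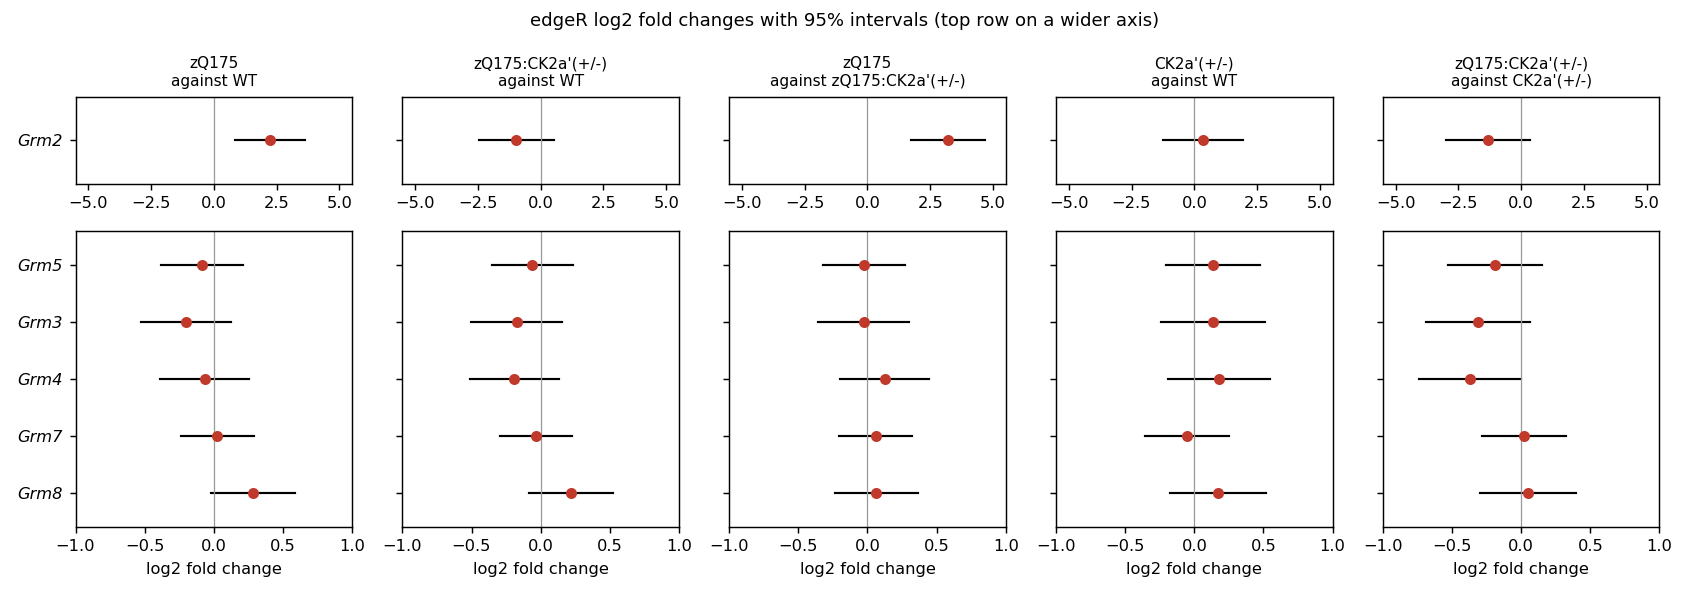
edgeR log2 fold changes (points) with 95% intervals (lines) in 5 comparisons, with Grm2 in the top row on a wider axis and the other receptors below. Grm2 has intervals above 0 for zQ175 against WT (2.24) and against zQ175:CK2a'(+/-) (3.21), and neither passed FDR 0.1.

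The call for Grm2 turned on few libraries and on the method. Without zQ175 replicate 4 the zQ175 against WT comparison passed (2.52, edgeR FDR = 0.0799), in a fit that called 1.14% of all genes. Without any filter on low counts it passed as well (FDR = 0.0205), as did zQ175 against zQ175:CK2a'(+/-) (FDR = 0.00208), where 1.2% and 0.136% of all genes were called. Without replicate 1 the log2 fold change was 1.55 against WT and 2.52 against zQ175:CK2a'(+/-). With replicates 1 and 5 left out together it was 0.20 against WT (edgeR FDR = 0.941) and 1.17 against zQ175:CK2a'(+/-) (edgeR FDR = 0.999). Over all genes, that setting gave 0 edgeR calls between zQ175 and WT mice in place of 230, with 2113 genes at an unadjusted p under 0.05. All genes called, zQ175 against WT, were also 0 without zQ175 replicate 5 alone and without WT replicate 3 alone, 10 without WT replicate 1, 77 without zQ175 replicate 1, 587 without WT replicate 2, and 133 to 339 without any other library.

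Both libraries with high Grm2 were those that stood apart in regional markers. Slc17a7 (VGLUT1), the vesicular glutamate transporter of cortical and hippocampal neurons, was at 66.8 CPM in replicate 1 and 202 CPM in replicate 5, against 11.9 to 32.2 CPM in WT mice and 29.1 to 62.5 CPM in the other zQ175 mice. Neurod6, a marker of excitatory neurons of the cortex and hippocampus, was at 45.7 CPM in replicate 5 but at 1.08 CPM in replicate 1, against 0.185 to 4.97 CPM in WT mice. The summed cortical markers of replicate 1 were 350.7 CPM, second to replicate 5 among the 18 libraries and above all WT mice. The thalamic sum was highest in replicate 1 and lowest in replicate 5. Both mice were also low in Xist, at 4.55 and 8.17 CPM, as was replicate 3 (47.0 CPM, Grm2 at 2.21 CPM). The zQ175 mice over 900 CPM of Xist had Grm2 at 1.62 and 0.791 CPM, and the 4 such WT mice had 0.888 to 1.97 CPM. Outside the zQ175 group the mice low in Xist had Grm2 at 1.40 CPM (WT replicate 1), 0.303 and 1.97 CPM (CK2a'(+/-) replicates 1 and 2) and 0.601 CPM (zQ175:CK2a'(+/-) replicate 5). Within the zQ175 group the 3 mice low in Xist held the 3 highest Grm2 values. With the Xist level as covariate the log2 fold change was 1.86 against WT (edgeR FDR = 0.29) and 2.77 against zQ175:CK2a'(+/-) (edgeR FDR = 0.77). The part of the regional markers in the Grm2 result was not tested.

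**Figure D4:**
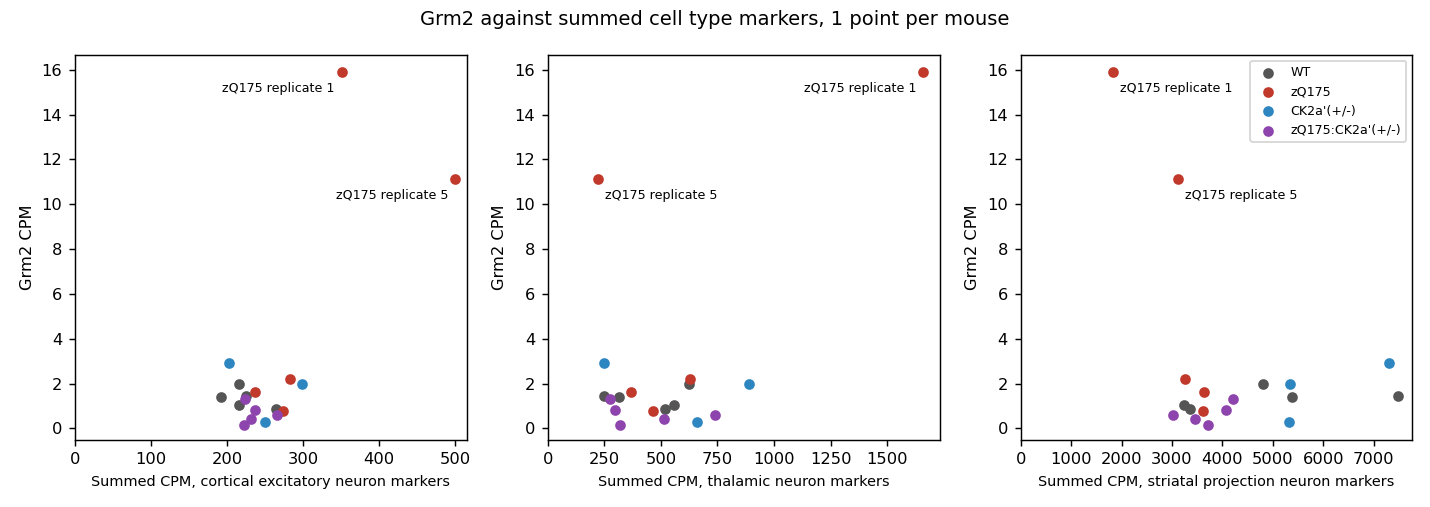
Grm2 CPM against the summed CPM of cortical excitatory, thalamic and striatal projection neuron markers, with 1 point per mouse. zQ175 replicate 5 has the highest cortical sum (499.9 CPM), and zQ175 replicate 1 the highest thalamic sum (1661 CPM) and the lowest projection neuron sum (1826 CPM).

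**Figure D5:**
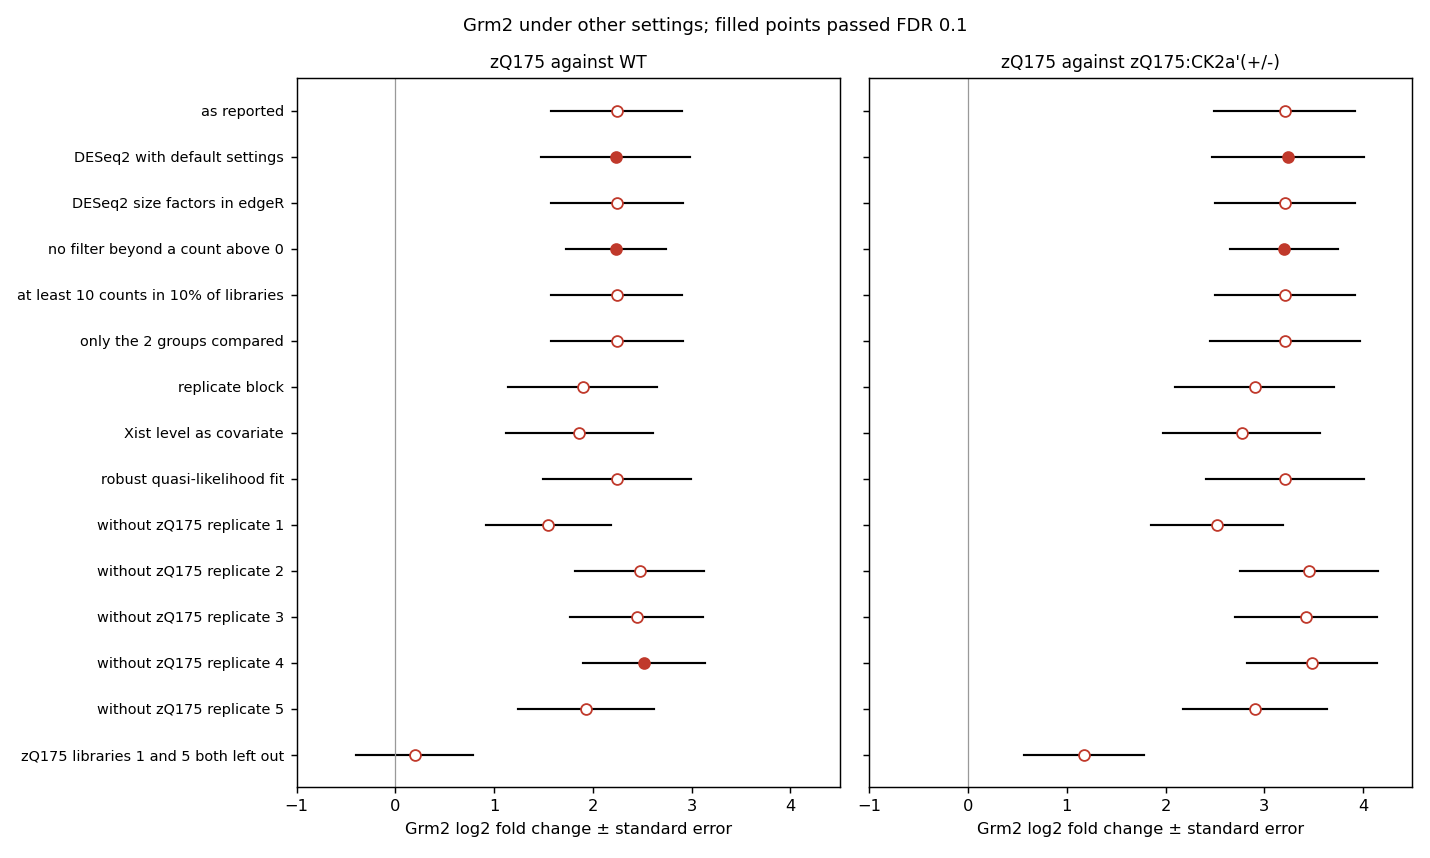
Grm2 log2 fold change ± standard error under other settings in the comparisons of zQ175 mice with WT and with zQ175:CK2a'(+/-) mice, with filled points where the FDR was under 0.1. Leaving out zQ175 libraries 1 and 5 together moves the values to 0.20 and 1.17.

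Grm3 (ENSMUSG00000003974, GRCm38 chromosome 5, 9485541 to 9725170, minus strand) is the group II receptor found in astrocytes as well as neurons. Its level was 98.6, 144, 102, 76.9 and 88.6 CPM in WT mice and 60.3, 86.6, 118, 107 and 71.9 CPM in zQ175 mice. The CK2a'(+/-) mice had 112, 119 and 105 CPM. The zQ175:CK2a'(+/-) mice had 94.8, 94.4, 98.7, 79.6 and 84.0 CPM. The zQ175 mice overlapped WT, and their lowest values were in replicates 1 and 5, where Grm2 was highest. The log2 fold change was -0.20 between zQ175 and WT mice (95% interval -0.53 to 0.13, edgeR FDR = 0.62), and 0.03 without those libraries. Leaving out 1 library moved it from -0.34 (without zQ175 replicate 3) to -0.058 (without WT replicate 2). It was -0.03 between zQ175 and zQ175:CK2a'(+/-) mice (-0.36 to 0.30, edgeR FDR = 0.99), and 0.20 without them. All 5 zQ175:CK2a'(+/-) mice were below all 3 CK2a'(+/-) mice (log2 fold change -0.31, 95% interval -0.69 to 0.06, edgeR FDR = 0.663).

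Grm4 (ENSMUSG00000063239, GRCm38 chromosome 17, 27422387 to 27521403, minus strand) is a presynaptic group III receptor. Its level was 53.9, 69.7, 62.2, 54.8 and 44.8 CPM in WT mice. In zQ175 mice it was 72.0, 54.3, 62.2, 53.1 and 30.9 CPM, so that replicates 1 and 5 held the highest and the lowest value of all 18 mice. The CK2a'(+/-) mice had 68.1, 70.4 and 55.1 CPM, and the zQ175:CK2a'(+/-) mice had 46.2, 47.5, 51.4, 50.7 and 54.2 CPM. All zQ175:CK2a'(+/-) mice were thus below all CK2a'(+/-) mice, by -0.37 on the log2 scale (95% interval -0.74 to -0.00033, edgeR FDR = 0.544). Grm3 and Grm4 were the 2 of 6 receptors without overlap in this comparison, where 8.34% of all genes did not overlap and 4.48% did so with the lower values in zQ175:CK2a'(+/-) mice. In a fit of only these 8 libraries Grm4 passed (-0.37, edgeR FDR = 0.0954), and that fit called 461 genes, 2.43% of those tested, in place of 124. The Grm4 value was -0.24 with the replicate block (edgeR FDR = 0.836), -0.33 with the Xist level as covariate (edgeR FDR = 0.632), and -0.37 with a robust fit (edgeR FDR = 0.589) and with DESeq2's size factors (edgeR FDR = 0.548), and in these 4 fits its unadjusted p was not under 0.05. Leaving out 1 of the 18 libraries at a time, the 124 calls ranged from 6 without CK2a'(+/-) replicate 2 to 221 without WT replicate 2. Markers of several cell types were lower in the same comparison. All 12 projection neuron markers were lower in zQ175:CK2a'(+/-) than in CK2a'(+/-) mice (2 called, Adora2a and Penk, 8 with an unadjusted p under 0.05, median log2 fold change -0.74), and their sums, 3015 to 4201 CPM against 5319 to 7303 CPM, did not overlap. Of the 8 astrocyte markers 6 were lower (0 called, 5 with an unadjusted p under 0.05, median -0.29), with sums of 3317 to 3644 CPM against 3965 to 4462 CPM. The summed oligodendrocyte markers (4016 to 5422 CPM against 5593 to 7021 CPM) did not overlap either, although 3 of 6 were lower and 3 higher (median -0.12, 1 called lower, Mobp). The summed interneuron markers (251 to 326 CPM against 330 to 350 CPM, 6 of 8 lower, 0 called) also did not overlap. Of the 5 endothelial markers 4 were lower (0 called, median -0.34), and of the 7 thalamic markers 6 (0 called, median -0.62), with sums that overlapped in both lists. Higher were 6 of 6 choroid plexus markers (median 0.82) and 3 of 3 oligodendrocyte precursor markers (median 0.19), with 0 called. Cortical (4 of 9 higher, median -0.04), hippocampal (3 of 5 higher, median 0.05) and microglia markers (4 of 6 higher, median 0.03) went both ways, with 0 called. The part of these markers in the Grm3 and Grm4 values was not tested. Against WT, Grm4 differed by -0.06 in zQ175 mice (-0.39 to 0.26, edgeR FDR = 0.894) and by -0.19 in zQ175:CK2a'(+/-) mice (-0.51 to 0.13, edgeR FDR = 0.78), the latter at -0.27 without WT replicate 5 and -0.12 without WT replicate 2.

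Grm7 (ENSMUSG00000056755, GRCm38 chromosome 6, 110645581 to 111567230, plus strand) is the group III receptor of the presynaptic active zone. Its level was 106, 125, 86.1, 85.2 and 72.7 CPM in WT mice and 86.7, 85.7, 123, 95 and 93.1 CPM in zQ175 mice. The CK2a'(+/-) mice had 101, 87.5 and 86.8 CPM, and the zQ175:CK2a'(+/-) mice had 92.3, 105, 101, 84.3 and 82.1 CPM. The groups overlapped in every comparison. Grm7 differed by 0.03 on the log2 scale between zQ175 and WT mice (95% interval -0.24 to 0.29, edgeR FDR = 0.954) and by 0.06 between zQ175 and zQ175:CK2a'(+/-) mice (-0.20 to 0.32, edgeR FDR = 0.973). Its exons share 390 bases with Gm20387 on the opposite strand, which had 23 to 96 counts.

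Grm8 (ENSMUSG00000024211, GRCm38 chromosome 6, 27275119 to 28135178, minus strand) is a presynaptic group III receptor. Its level was 17.3, 16, 14.4, 13.9 and 15.8 CPM in WT mice and 20.0, 26.7, 16.6, 15 and 16 CPM in zQ175 mice. The CK2a'(+/-) mice had 18.3, 16.5 and 17.6 CPM, and the zQ175:CK2a'(+/-) mice had 22.2, 18, 14.6, 16.1 and 19.4 CPM. Among zQ175 mice, replicates 1 and 2 were above all WT mice and the others overlapped them. Grm8 was 0.28 higher on the log2 scale in zQ175 than in WT mice (95% interval -0.02 to 0.58, edgeR FDR = 0.396), and 0.11 without replicate 2. It was 0.06 between zQ175 and zQ175:CK2a'(+/-) mice (-0.24 to 0.37, edgeR FDR = 0.974).

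Across the 18 libraries the Spearman correlation of log2 CPM between receptors ranged from -0.121 (Grm3 and Grm8) to 0.593 (Grm3 and Grm7), and Grm3 and Grm5 were at 0.511. These values and those below are descriptions over libraries that also share genotype and tissue composition. The genes most like Grm5 were Cdk17 (0.917), a kinase of neurons, Phactr1 (0.903), a regulator of actin, and Kcnq5 (0.901), a potassium channel. Those most like Grm3 were Dlgap3 (0.858), a scaffold of striatal synapses, Per2 (0.851), a clock gene, and Gm44593 (0.847). Grm4 went with Hlf (0.893), a clock-output transcription factor, Pdp1 (0.849), a phosphatase of pyruvate dehydrogenase, and Igsf9b (0.839), an adhesion protein. Grm7 went with Gm13091 (0.853), Rngtt (0.839), the mRNA capping enzyme, and Rpl23a-ps2 (0.783). Grm8 went with Tspan32os (0.895), Sephs1 (0.882) and Gm47621 (0.837), and Grm2 with the predicted genes Gm38236 (0.827), Gm46447 (0.818) and Gm14049 (0.783).

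The pathway around the receptors was followed with lists of 48 genes, of which 47 were tested and Grm6 was not. edgeR called 0 of the 47 in every comparison. At an unadjusted p under 0.05, 13 of 47 passed between zQ175 and WT mice (13.9% of all genes), 9 between zQ175 and zQ175:CK2a'(+/-) mice (6.27%), 2 between zQ175:CK2a'(+/-) and WT mice (9.13%), 3 between CK2a'(+/-) and WT mice (4.48%), 8 between zQ175:CK2a'(+/-) and CK2a'(+/-) mice (9.19%), and 7 for the interaction (5.39%). DESeq2 called 2 of the 47, Homer2 and Shank2, between zQ175 and WT mice, where it called 5.26% of the genes with an adjusted p. It called 1, Slc17a7, between zQ175 and zQ175:CK2a'(+/-) mice (0.145%). It called 0 between zQ175:CK2a'(+/-) and WT (0.725%), CK2a'(+/-) and WT (0.0293%), and zQ175:CK2a'(+/-) and CK2a'(+/-) mice (1.47%), and for the interaction (0.103%).

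Among the scaffolds that hold group I receptors at the synapse, 4 of 8 were higher and 4 lower in zQ175 than in WT mice, with a median log2 fold change of 0.13 against 0.0042 over all genes. Shank2 had the lowest p of the lists there (0.28, SE 0.0788, edgeR FDR = 0.11, DESeq2 FDR = 0.0327), and was at 0.30 (edgeR FDR = 0.27) without zQ175 replicates 1 and 5. Of the 8 genes of group I signalling (Gq proteins, phospholipases C and their partners), 4 were higher and 4 lower, with a median of 0.01. Of the 11 genes of group II and III signalling (Gi/o proteins, adenylyl cyclases and potassium channels), 7 were higher and 4 lower, with a median of 0.11. In the lists of group III partners, ligand supply and removal, and desensitization, 2 of 4, 5 of 9 and 4 of 6 were higher. Slc17a7, which loads glutamate into vesicles, had the other low p at 1.61 (SE 0.488, edgeR FDR = 0.139), with the levels per mouse given above, and was at 0.81 (SE 0.457, edgeR FDR = 0.57) without zQ175 replicates 1 and 5.

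Against zQ175:CK2a'(+/-) mice, Slc17a7 differed by 2.24 in zQ175 mice (SE 0.502, edgeR FDR = 0.328) and Kcnj6, a G protein-gated potassium channel subunit, by 1.48 (SE 0.389, edgeR FDR = 0.438), and both also had the lowest p for the interaction (-2.51 and -1.38, edgeR FDR = 0.811 and 0.916). Without zQ175 replicates 1 and 5, Slc17a7 differed by 1.44 (SE 0.461, edgeR FDR = 0.999) and Kcnj6 by 0.68 (SE 0.356, edgeR FDR = 0.999), with interactions of -1.72 and -0.58 (edgeR FDR = 0.975 for both). edgeR called none of the cell type markers between zQ175 and zQ175:CK2a'(+/-) mice. DESeq2 called Slc17a7, which is also on the cortical marker list, and the study's own DESeq2 list for this comparison holds the markers Slc17a7, Tbr1 and Ttr. In zQ175 mice 8 of 9 cortical markers (median log2 fold change 0.47, 4 with an unadjusted p under 0.05) and 7 of 7 thalamic markers (median 1.00, 2 under 0.05) were higher. Lower there were 6 of 6 choroid plexus markers (median -3.21, 4 under 0.05), which were high in zQ175:CK2a'(+/-) replicate 2 alone of these 10 mice, 6 of 6 oligodendrocyte markers (median -0.29, 4 under 0.05) and 5 of 6 microglia markers (median -0.26, 4 under 0.05). Also lower in zQ175 mice were 7 of 8 interneuron markers (median -0.18, 2 under 0.05) and 10 of 12 projection neuron markers (median -0.19, 0 under 0.05). The part of these markers in the receptor and pathway values of this comparison was not tested. Between zQ175:CK2a'(+/-) and CK2a'(+/-) mice, 31 of 47 genes were lower, with a median of -0.14 against 0.0041 over all genes, and Adcy5, the main striatal adenylyl cyclase, was at -0.67 (SE 0.205, edgeR FDR = 0.216) and Slc7a11, the cystine-glutamate exchanger, at -0.47 (SE 0.149, edgeR FDR = 0.245). The cell type markers that were lower or higher in this comparison are given with Grm4 above, and their part in the pathway values was not tested. Between zQ175:CK2a'(+/-) and WT mice 31 of 47 genes were lower as well, with a median of -0.06 against -0.0087 over all genes, and so were all 12 projection neuron markers (0 called, 6 with an unadjusted p under 0.05, median -0.44). With 0 called, 7 of 8 astrocyte (median -0.14), 5 of 6 oligodendrocyte (-0.21), 7 of 8 interneuron (-0.18) and 6 of 7 thalamic markers (-0.16) were lower there. Of the hippocampal markers 4 of 5 were higher (0.07, 0 called). The part of the markers in these pathway values was not tested. Slc7a11 was among the 2 genes of the lists with the lowest p between zQ175:CK2a'(+/-) and WT mice (-0.32, edgeR FDR = 0.456). Between CK2a'(+/-) and WT mice the lowest p belonged to the Gi subunit genes Gnai2 (-0.22, edgeR FDR = 0.999) and Gnai1 (-0.20, edgeR FDR = 0.999).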

How the data were processed

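Striatal RNA libraries were made with a stranded total RNA kit. After trimming (Trimmomatic), alignment to GRCm38 (HISAT2 2.1.0) and removal of duplicates and poorly mapped reads, the authors deposited unnormalized counts per gene from Subread 1.6.2. A further deposited column holds other values, the exon length of each gene in bases. The strand setting of the counting and the annotation release are not given in the sources used here, so reads in the 390 exon bases that Grm7 shares with Gm20387 on the opposite strand cannot be told apart. Symbols were taken from a gene name table that matched 55154 of 55421 IDs.

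In R 4.3.3, counts were tested with edgeR 4.0.16 (TMM, filterByExpr, quasi-likelihood test, genotype as the factor, 18 libraries fitted together). A gene passed at FDR under 0.1. DESeq2 1.42.0 with default settings, the tool and threshold of the study, was the first alternative. Intervals of 95% were computed from the log2 fold change and the standard error that the F statistic implies. Within groups, log2 CPM (prior count 2) correlated at 0.95 to 0.972, and the median total count was 18005044. The labels do not state separate litters or cohorts, so p-values measure the spread between these mice. In simulated zQ175 and WT counts of 20914 genes, 200 with a log2 fold change of 1, edgeR recovered 76.5% with 6.13% false calls, and DESeq2 82.0% with 21.9%. The changed genes were drawn from those with a mean above 1 CPM, and counts were negative binomial. No simulated library stood apart in regional markers, so these rates do not carry over to results that turn on such libraries.

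The members and lists were chosen with earlier results of these data known. Named were the 6 receptors, the 3 genes most like each, pathway genes called or else the 2 with the lowest p, Csnk2a2, Xist and summed marker lists. Neurod6, Homer2 and the single markers called were named after their values were seen. Some genes under these rules are not reported here. Receptor proteins were not used here. Alternatives were DESeq2, its size factors, other filters, only the groups compared, a replicate block, Xist as covariate, a robust fit, FDR 0.05, each library left out in turn, and 2 libraries left out together.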

Additional observations from a re-analysis of the deposited data

Results flagged for a closer look

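Among the 18 sets of a receptor in a group of 5 mice, 2 held a mouse whose gap to its nearest neighbour, as a share of the range of the group, exceeded Dixon's 95% critical value of 0.71, which chance passes in about 1 set in 20. Grm5 was at 225 CPM in zQ175 replicate 1, with a gap of 0.78 of the range, below the other 4 zQ175 mice (349 to 383 CPM). This library also had the lowest level of all 12 projection neuron markers, whose part in the value was not tested. Grm7 was at 123 CPM in zQ175 replicate 3, with a gap of 0.754 of the range, above the other 4 zQ175 mice (85.7 to 95 CPM) and within the WT range, whose highest mouse had 125 CPM. The interaction test called no receptor.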

How the results depend on the processing

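Of 318 receptor fold changes under settings other than leaving out 1 library, 305 kept their direction and their side of the threshold, 5 passed in addition and 8 changed sign. The number of receptors called went from 0 to 1 with DESeq2 and with no filter (Grm2, zQ175 against WT and against zQ175:CK2a'(+/-)) and with only the groups compared (Grm4, zQ175:CK2a'(+/-) against CK2a'(+/-)), and leaving out each library gave 0 to 1 for zQ175 against WT. The sign changed without zQ175 libraries 1 and 5 for Grm3 (0.028 against WT, 0.20 against zQ175:CK2a'(+/-)) and Grm5 (0.041 and 0.0975), with Xist as covariate for Grm3 (0.0079) and Grm5 (0.018) against zQ175:CK2a'(+/-) and the Grm7 interaction (0.028), and with the replicate block for the Grm7 interaction (0.070). Leaving out 1 library turned 36 of 648 values, none of them called. For zQ175 against WT the ranges were -0.19 to 0.081 (Grm4), -0.16 to 0.065 (Grm5) and -0.089 to 0.13 (Grm7). For zQ175 against zQ175:CK2a'(+/-) they were -0.15 to 0.082 (Grm3), -0.00061 to 0.27 (Grm4), -0.082 to 0.083 (Grm5), -0.042 to 0.11 (Grm7) and -0.090 to 0.15 (Grm8). For zQ175:CK2a'(+/-) against WT they were -0.12 to 0.091 (Grm5) and -0.12 to 0.072 (Grm7), and against CK2a'(+/-) -0.026 to 0.092 (Grm7) and -0.035 to 0.12 (Grm8). For CK2a'(+/-) against WT they were -0.22 to 0.86 (Grm2) and -0.14 to 0.071 (Grm7), and for the interaction -0.27 to 0.0073 (Grm3) and -0.13 to 0.090 (Grm7). The replicate numbers did not pair the mice (24 same-number pairs, deviations correlated at -0.136 to 0.12, 2 above 0.1, and 1 of 18 libraries closest to its own number). With the replicate block Grm2 was 1.90 (edgeR FDR = 0.298) against WT and 2.90 (edgeR FDR = 0.543) against zQ175:CK2a'(+/-), no receptor passed, and calls over all genes between zQ175 and WT mice went from 230 to 98. Those calls were 855 with DESeq2, 451 with no filter, 0 with only the groups compared and 51 at FDR 0.05. The causes were not tested. Depth limits Grm2 most, with 2 to 45 counts in 16 of 18 mice.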
